A study of Mus musculus with 2 samples.

Results

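The 2'-5'-oligoadenylate synthetase (OAS) family of the mouse was followed through the cell classes of the uterus. The family was chosen by gene symbol: 8 genes were named, Oas1a, Oas1b, Oas1c, Oas1g, Oas2, Oas3, Oasl1 and Oasl2, and 7 of them had a row among the 32285 genes listed in both count tables. Oas1b was not analysed here. Because the family was picked with earlier results of these libraries known, its levels are given as a description, and nothing below is a test.

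The data are droplet single-cell RNA-seq counts of transcript 3' ends, in unique molecular identifiers (UMIs), from whole uteri of female mice aged 6 months. The control library came from Prickle1 f/f mice. The other library, labelled Prickle1 f/f Ltf-cre and called cKO below, came from mice with the same floxed alleles plus Cre recombinase expressed from the Ltf (lactotransferrin) locus, a gene of the uterine epithelium. Each group was 1 library pooled from 3 mice, so genotype, animals, the 5 hours of tissue digestion and library preparation cannot be told apart. A separate label field describes both libraries as C57BL/6J wild-type, and the groups here follow the sample titles. All intervals are 95% intervals for counting error only.

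OAS enzymes are sensors of double-stranded RNA. When they bind it, they join ATP into 2'-5'-linked oligoadenylates (2-5A), which act as a second messenger of the antiviral response. Transcription of the family is induced by type I and type III interferons through transcription factors that the interferon receptors activate, Stat2 and Irf9 among them. Oas1a and Oas1g are small enzymes with a single OAS unit, Oas2 carries a pair of such units and Oas3 carries more. Oasl1 and Oasl2 have an OAS-like unit followed by ubiquitin-like domains. Oasl1 does not make 2-5A and is known as a brake on translation of Irf7 mRNA, and mouse Oasl2 is described as an active synthetase.

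The 8 genes lie on chromosome 5 of GRCm38 in a pair of neighbourhoods (GENCODE M21 positions). Oasl2 (chr5:114896936-114912234) and Oasl1 (chr5:114923240-114937915) are neighbours on the plus strand. Oas2 (chr5:120730333-120749853), Oas3 (chr5:120753098-120777661), Oas1c (chr5:120800194-120812514), Oas1g (chr5:120876142-120887613) and Oas1a (chr5:120896256-120907521) follow one another on the minus strand, with Oas1b (chr5:120812635-120824163), annotated as a polymorphic pseudogene, between Oas1c and Oas1g on the plus strand. The coding sequences of Oas1a and Oas1g, 1101 bases each, were 96.7% identical, against 76.2% for Oas1a and Oas1c and 62.7% for Oasl1 and Oasl2. Of the 90-base windows in the last 400 bases of the Oas1a transcripts, 23.8% also occurred in Oas1g, so the division of reads between this pair is uncertain. Antisense or unclassified genes overlap Oas1c (Gm43069), Oas2 (Gm43068) and Oasl1 (Gm13822), and the sources used here do not say whether counting used strand.

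The start regions of the members show how alike the copies are and where interferon-type motifs lie. The windows below are RefSeq sequence (GRCm38.p6), the 130 bases before the annotated start, 5' to 3' on the gene's strand, for the 6 members with an entry: Oas1a (chr5:120907526-120907655), Oas1g (chr5:120887614-120887743), Oas1c (chr5:120812515-120812644) and Oas3 (chr5:120777660-120777789) on the minus strand, and Oasl1 (chr5:114923110-114923239) and Oasl2 (chr5:114896804-114896933) on the plus strand. Capitals mark matches, on either strand, of the unit GAAA followed by any 2 bases and by GAAA again, the core of an interferon-stimulated response element.
Oas1a: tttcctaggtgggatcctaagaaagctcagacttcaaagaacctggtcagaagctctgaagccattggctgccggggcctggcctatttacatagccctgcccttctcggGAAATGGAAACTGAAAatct
Oas1g: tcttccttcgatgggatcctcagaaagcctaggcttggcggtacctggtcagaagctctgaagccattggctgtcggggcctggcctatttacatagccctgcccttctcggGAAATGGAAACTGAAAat
Oas1c: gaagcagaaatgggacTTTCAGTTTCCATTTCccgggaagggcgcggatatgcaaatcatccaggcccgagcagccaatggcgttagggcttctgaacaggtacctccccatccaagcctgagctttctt
Oas3: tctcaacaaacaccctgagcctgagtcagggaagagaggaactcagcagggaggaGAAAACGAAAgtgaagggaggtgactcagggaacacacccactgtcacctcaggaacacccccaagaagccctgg
Oasl1: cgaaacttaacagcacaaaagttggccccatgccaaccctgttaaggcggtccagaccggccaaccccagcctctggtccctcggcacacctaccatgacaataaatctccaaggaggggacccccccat
Oasl2: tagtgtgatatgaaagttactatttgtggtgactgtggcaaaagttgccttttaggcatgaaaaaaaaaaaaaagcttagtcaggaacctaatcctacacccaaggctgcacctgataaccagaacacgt
Oas1a and Oas1g shared the same pair of overlapping matches, beginning 20 and 14 bases before the start in Oas1a and 18 and 12 bases in Oas1g, and their windows were 90.6% identical over 128 aligned bases. Oas1c held a pair of matches on the opposite strand, 114 and 108 bases before the start, and Oas3 held 1 match at 75 bases. The Oas1c window runs into Oas1b, which begins at chr5:120812635 on the plus strand. The Oas1c matches lie just before that start and, read on the plus strand, have the same letters as those of Oas1a. Which of these genes they serve was not tested. No match was found in the 300-base windows of Oasl1 and Oasl2, which says only that these letters are not there. Over all 32851 RefSeq start regions of that length, 1131 (3.44%) held the motif.

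A barcode counted as a cell when 500 or more genes were detected and no more than 20% of its UMIs were mitochondrial, which held for 3653 in control and 4950 in cKO. A class held the cells with a UMI of its marker and of no other class's marker: Epcam for epithelium, Pdgfra for stroma, C1qa for macrophages, Flt3 for dendritic cells, and Cd3e or Ncr1 for lymphoid cells. The classes held 984, 648, 249, 43 and 157 cells in control and 143, 1542, 121, 141 and 435 in cKO. Their median depth ran from 4224 to 12271.5 UMIs in control and from 4537 to 15867 in cKO. Cells without any class marker (1474 and 2431) and with markers of several classes (98 and 137) were left out of the classes. The libraries held 45035801 and 57145553 UMIs in all, and 6 barcodes with at least 500 genes occurred in both. Prickle1 itself was measured first as a check of the labels. It gave 15 UMIs in control Epcam cells (0.843 CPM, UMIs scaled to CPM of the class total) and 17 in cKO Epcam cells (4.05 CPM). The ratio was 4.80 (2.26 to 10.3) in Epcam cells and 3.11 (2.49 to 3.90) over all cells. Prickle1 was thus higher, not lower, in the library labelled cKO. The deleted exons are not given in the sources used here, and a 3' tag outside them checks nothing.

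The class labels were compared with marker lists. Control Epcam cells were epithelial by this measure: 95% had a Krt8 UMI, 3.05% had Ptprc and 1.83% had the mesothelial gene Msln. In the cKO Epcam class the same shares were 62.9%, 29.4% and 25.9%, and the 7 stromal markers summed to 3207 CPM against 274 CPM in control, with Pdgfra at 0 by construction. The cKO Epcam class was therefore of mixed makeup, and values for Epcam cells with a keratin UMI and without Ptprc, Msln or Upk3b (909 control and 50 cKO cells) are given after the class values. Nearly all Flt3 cells carried Ccr7, 42 of 43 in control and 134 of 141 in cKO, and all 7 dendritic markers were detected in both libraries. Markers of other cell types differed between the libraries in the other classes too. In Flt3 cells the lymphoid list was at 0 in control and at 338 CPM in cKO, the red cell list at 7.62 and 584 CPM and the stromal list at 95.2 and 274 CPM. In C1qa cells the red cell list was at 10.7 and 706 CPM, the mast cell list at 4.88 and 195 CPM and the macrophage list at 5201 and 6412 CPM. In lymphoid cells the dendritic list was at 82.6 and 220 CPM and the smooth muscle list at 47.7 and 185 CPM. In Pdgfra cells the plasmacytoid dendritic list was at 592 and 1371 CPM and the red cell list at 56.9 and 1.28 CPM. The part of these cells in the results was not tested.

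Summed over the 7 members, the control library held 18595 UMIs in cells (493 CPM) and the cKO library 2403 (45.4 CPM). The cells that carried these UMIs differed between the libraries. Control Epcam cells held 60.5% of the control library's member UMIs and 47.2% of all its UMIs, whereas cKO Epcam cells held 7.16% of the member UMIs and 7.93% of all UMIs. The C1qa class held 15.4% of the member UMIs in control and 38.3% in cKO, on 5.44% and 2.09% of all UMIs. Cells without a class marker held 11.7% of the member UMIs in control and 15.6% in cKO, and cells with markers of several classes 6.74% and 16.6%.

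Within the classes the summed level was highest in C1qa cells of both libraries. In control it was 1401 CPM (1350 to 1453) in C1qa cells, 949 (867 to 1036) in Flt3 cells, 632 (620 to 644) in Epcam cells, 106 (84.1 to 131) in Cd3e or Ncr1 cells and 55.3 (50.5 to 60.5) in Pdgfra cells. None of these intervals overlapped its neighbour's. In cKO it was 831 CPM (778 to 887) in C1qa cells, 158 (141 to 176) in Flt3 cells, 41.0 (35.1 to 47.6) in Epcam cells, 23.4 (17.7 to 30.4) in lymphoid cells and 5.83 (4.96 to 6.80) in Pdgfra cells. The order of the classes was the same in both libraries, and the cKO value was the lower one in each class.

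Which paralog a class used differed between classes. Counts of 3' ends carry no length factor, so UMIs of the paralogs were set side by side as shares of the class's member UMIs. Among 11243 member UMIs of control Epcam cells, Oasl1 took 44.2% (43.3 to 45.1), Oasl2 29.4%, Oas2 13.2%, Oas3 7.94%, Oas1a 3.22%, Oas1g 1.81% and Oas1c 0.178%. C1qa cells were dominated by Oasl1, with 71.8% (70.1 to 73.4) of 2870 UMIs, and Oasl2 held 18.4%. Pdgfra cells were dominated by Oasl2, with 61.8% (57.2 to 66.2) of 476 UMIs, and Oasl1 held 27.9%. Flt3 cells divided 498 UMIs among Oasl2 (41.6%), Oasl1 (32.9%) and Oas3 (18.1%). In lymphoid cells Oas3 led with 37.8% (27.3 to 49.2) of only 82 UMIs, and its interval overlapped that of Oasl2 at 30.5% (20.8 to 41.6).

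In the cKO library Oasl1 was again the leading paralog of C1qa cells, with 58.1% (54.8 to 61.3) of 921 UMIs, and Oasl2 that of Pdgfra cells, with 76.1% (68.7 to 82.5) of 159 UMIs. The leader differed from control in the other 3 classes. In cKO Flt3 cells Oasl1 held 52.9% (47.3 to 58.5) of 323 UMIs and Oasl2 23.2%. In cKO lymphoid cells Oasl2 held 69.6% (55.9 to 81.2) of 56 UMIs and Oas3 8.93%. In cKO Epcam cells Oasl2 held 43.6% (36.1 to 51.4) and Oasl1 30.2% (23.5 to 37.7) of 172 UMIs, with intervals that just overlapped. In the keratin-bearing Epcam cells of the cKO library, where 70 member UMIs were left, 23 were Oasl1 (32.9%, 22.1 to 45.1) and 16 were Oasl2 (22.9%, 13.7 to 34.4). These intervals overlapped and 1 cell held 35.7% of the 70 UMIs, so no order is read from them. The leader of other classes turned under some alternatives. With cells of several markers kept, Oasl1 led Pdgfra cells of both libraries narrowly, with 43.7% against 42.8% for Oasl2 in control and 42.5% against 41.3% in cKO. In control Flt3 cells Oasl1 led with 38.9% against 38.2% in the same setting and with 45% against 37.5% after thinning each cell to 1000 UMIs, so that the Flt3 leader was then the same in both libraries. In control lymphoid cells Oasl2 led under 3 of 10 alternatives, and C1qa cells had Oasl1 first under all 10 in each library.

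**Figure D1:**
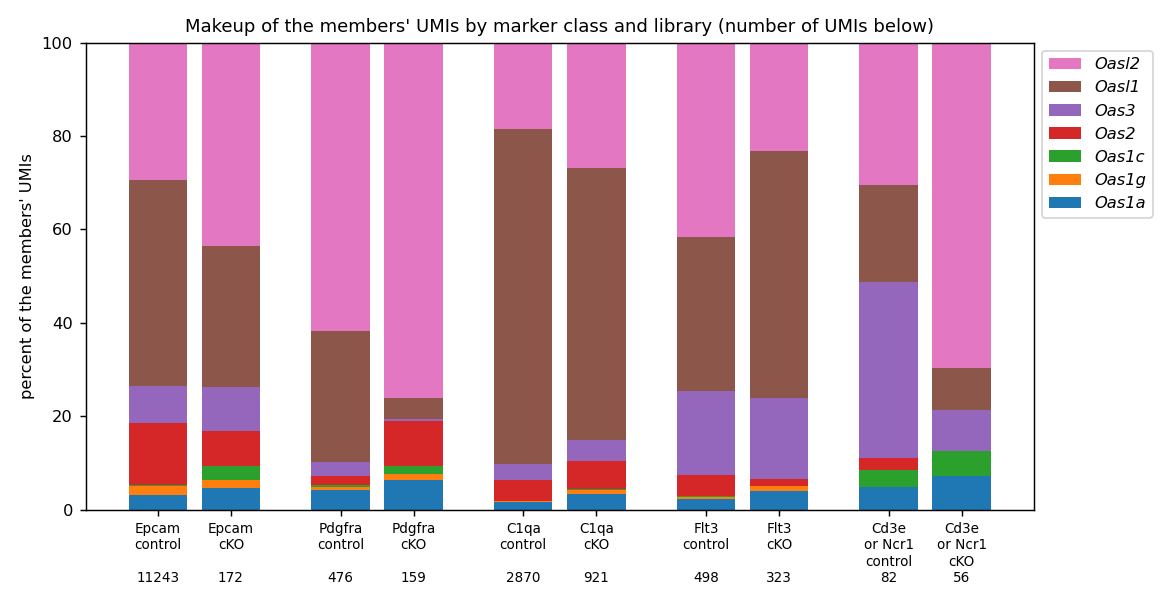
Makeup of the members' UMIs (vertical axis, percent) in each marker class of the control and cKO libraries, with the number of UMIs under each bar. Oasl1 (brown) fills 71.8% of the control C1qa bar, Oasl2 (pink) 61.8% of the control Pdgfra bar, and Oas3 (purple) is widest, at 37.8%, in control Cd3e or Ncr1 cells, which hold only 82 UMIs.

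Oas1a and Oas1g are the small enzymes of the family. Oas1a was at 20.3 CPM in control Epcam cells (362 UMIs), 22.5 in C1qa cells, 21 in Flt3 cells, 5.16 in lymphoid cells and 2.32 in Pdgfra cells, so the first 3 could not be ranked within counting error. In cKO it was at 1.91 CPM in Epcam cells (8 UMIs), 27.1 in C1qa cells, 6.36 in Flt3 cells, 1.67 in lymphoid cells and 0.366 in Pdgfra cells. In Epcam cells it was 10.7-fold lower in cKO (5.36 to 24.9), a log2 ratio of -3.33 that was -4.25 with cells weighted equally, whereas the C1qa ratio was 1.21 (0.735 to 1.95), an interval that spans 1.

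Oas1g, its near-identical neighbour, had most of its UMIs within the 5 classes in control Epcam cells. It had 203 UMIs there (11.4 CPM, 9.89 to 13.1), 4 in C1qa cells (1.95 CPM), 3 in Pdgfra cells, 2 in Flt3 cells (3.81 CPM, 0.461 to 13.8, overlapping the Epcam level) and none in lymphoid cells, where 0 of 775103 UMIs allows up to 3. Of the UMIs given to Oas1a and Oas1g together, Oas1g took 35.9% (32.0 to 40.0) in control Epcam cells and 8% (2.22 to 19.2) in control C1qa cells. In cKO C1qa cells the share was 21.1% (9.55 to 37.3), and Oas1g was at 7.22 CPM (3.12 to 14.2) there, overlapping the cKO Flt3 level of 1.47 CPM (0.302 to 4.29). In cKO Epcam cells Oas1g had 3 UMIs (0.715 CPM), a ratio to control of 0.0626 (0.0128 to 0.186). The log2 ratio was -3.78, and -1.37 after thinning.

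Oas1c, a further gene of the OAS1 cluster, did not follow the others in Epcam cells. It had 20 UMIs in control Epcam cells (1.12 CPM), each in a different cell, and 5 in cKO Epcam cells (1.19 CPM). The ratio was 1.06 (0.311 to 2.91), an interval too wide to show a 2-fold difference in either direction, and the sign of the difference turned under some alternatives (log2 ratio 0.19, or -0.41 with TMM scaling). No other class held more than 3 UMIs of it in either library. Over all cells, whose makeup differed between the libraries, Oas1c had 40 UMIs in control and 24 in cKO, a ratio of 0.427 (0.246 to 0.726). The remaining mouse OAS1 genes on the fixed list, Oas1d, Oas1e, Oas1f and Oas1h, had 0 to 2 UMIs in any class.

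Oas2, the enzyme with a pair of OAS units, was the one member whose control level was highest in Epcam cells beyond counting error, at 83.6 CPM (79.4 to 88.0; 1488 UMIs). It was at 63.0 CPM in C1qa cells, 43.8 in Flt3 cells, 2.58 in lymphoid cells and 1.05 in Pdgfra cells. In cKO Epcam cells 13 UMIs were left (3.10 CPM), a 27.0-fold lower level (15.7 to 50.8), and 61.5% of them came from 1 cell. Without the cell highest in members in each library the log2 ratio was -5.93 in place of -4.70, and with cells weighted equally it was -5.96. C1qa cells held 63.0 against 48.7 CPM, with a ratio of 0.774 (0.553 to 1.07). Oas2 was therefore highest in C1qa cells of the cKO library.

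Oas3, the largest member with a coding sequence of 3414 bases, was highest in the control Flt3 class, at 171 CPM (138 to 211; 90 UMIs). Its control levels in Epcam (50.2 CPM), C1qa (48.3) and lymphoid cells (40.0) overlapped, and it was at 1.74 CPM in Pdgfra cells. In cKO it was at 27.4 CPM in Flt3 cells, 3.81 in Epcam cells, 38.8 in C1qa cells, 2.09 in lymphoid cells and 0.0366 (1 UMI) in Pdgfra cells. The Flt3 level was 6.26-fold lower (4.44 to 8.91), the Epcam level 13.2-fold lower (8.06 to 23.1) and the lymphoid level 19.1-fold lower (7.37 to 62.9) than in control. The Flt3 log2 ratio of -2.64 was -1.71 after thinning, and the lymphoid one of -4.14 was -2.97 with cells of several markers kept. For C1qa cells the ratio was 0.803 (0.548 to 1.16), a log2 ratio of -0.31 that was -1.0 with cells weighted equally.

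Oasl1, the member that limits Irf7 translation, had the highest single value of the family. It was at 1006 CPM in control C1qa cells (2060 UMIs) and 483 CPM in cKO C1qa cells (535 UMIs), 2.08-fold lower (1.89 to 2.30). Control Flt3 cells (312 CPM) and Epcam cells (279 CPM) overlapped in counting error, and lymphoid (21.9) and Pdgfra cells (15.5) lay far lower. In cKO the values were 83.6 CPM in Flt3 cells, 12.4 in Epcam cells, 2.09 in lymphoid cells and 0.256 (7 UMIs) in Pdgfra cells. The Epcam level was 22.6-fold lower (17.2 to 30.2), the Pdgfra level 60.3-fold lower (28.4 to 153) and the Flt3 level 3.74-fold lower (3.00 to 4.66). The Pdgfra value rests on the 7 cKO UMIs: its log2 ratio of -5.82 was -3.01 with cells of several markers kept, -4.07 after thinning and -4.46 with cells weighted equally. One cell supplied 25.6% of the 133 Oasl1 UMIs of control Pdgfra cells.

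In control Oasl2 was at 394 CPM in Flt3 cells, 258 in C1qa cells, 186 in Epcam cells, 34.2 in Pdgfra cells and 32.3 in lymphoid cells, the last pair overlapping. In cKO it was at 36.7, 224, 17.9, 4.43 and 16.3 CPM in the same classes. Flt3 cells differed by 10.8-fold (8.22 to 14.2), Epcam cells by 10.4-fold (8.27 to 13.3) and Pdgfra cells by 7.71-fold (6.22 to 9.60), each lower in cKO. The Epcam log2 ratio of -3.37 was -2.48 after thinning. The C1qa ratio was 0.867 (0.742 to 1.01). In lymphoid cells the ratio was 0.506 (0.299 to 0.873), and its log2 value of -0.99 was -0.23 with 2 marker UMIs required, -0.29 after thinning and -1.72 with cells of several markers kept.

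**Figure D2:**
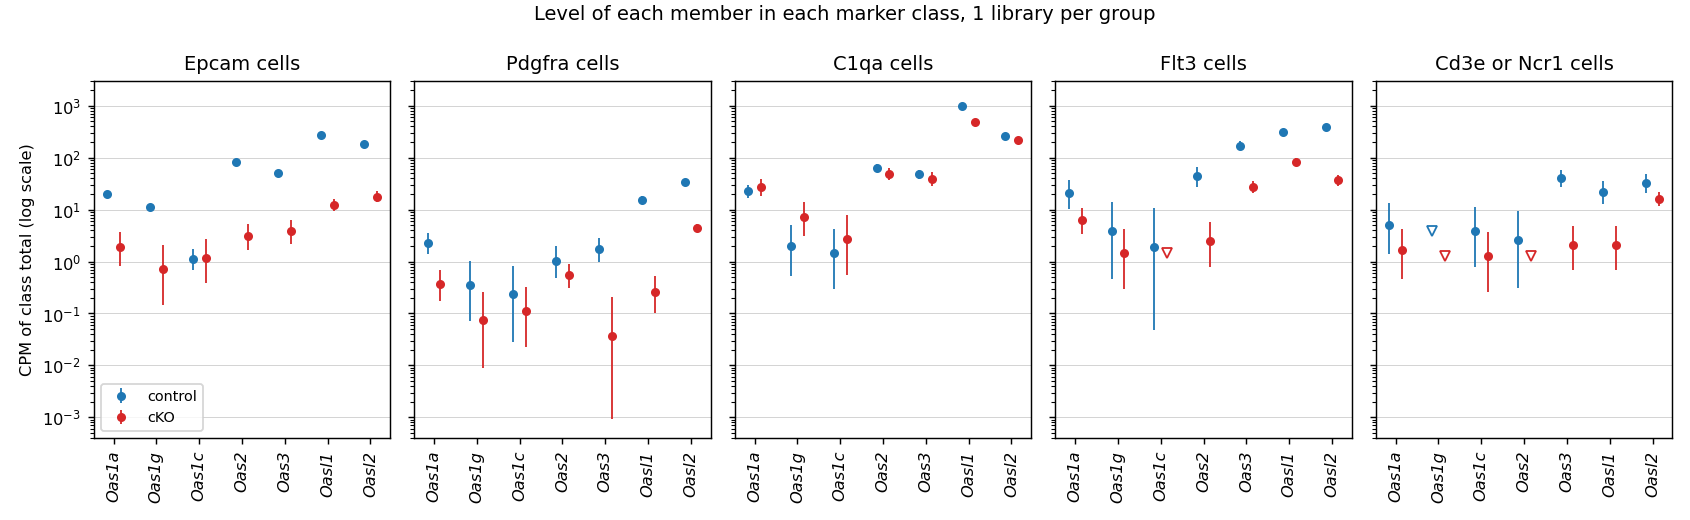
Level of each member in the 5 marker classes (vertical axis, CPM of the class total, log scale) in control (blue) and cKO (red), 1 library each. Points are summed counts, bars are exact Poisson 95% intervals, and open triangles mark 0 UMIs at the level of 3 UMIs. In Epcam cells every member other than Oas1c is lower in cKO, whereas in C1qa cells Oasl1 is at 1006 against 483 CPM and Oas1g, on 4 and 8 UMIs, at 1.95 against 7.22 CPM.

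Ratios of all members were then read against all genes of the same class with at least 20 UMIs over both libraries, with 2-fold (pseudocount 0.5 UMI) as the size counted. In Epcam cells 6 of 7 members were at least 2-fold lower in cKO and none was higher, where 9.21% of 13217 genes were lower and 30.2% higher. The median log2 ratio was -3.68 for the members and 0.47 for all genes. In Pdgfra cells 3 of the 4 members with enough UMIs (Oas1a, Oasl1 and Oasl2, not Oas2) were lower, where 6.9% of 13667 genes were lower and 5.56% higher. In C1qa cells 1 of 5 members, Oasl1, was lower, where 4.37% of 7992 genes were lower and 9.63% higher. In Flt3 cells all 5 members with enough UMIs were lower, where 5.18% of 7765 genes were lower and 15.6% higher. In lymphoid cells Oas3 and Oasl1, 2 of 3 members, were lower, where 3.42% of 9445 genes were lower and 7.71% higher. The family was picked with these contrasts known, so nothing is read from the counts.

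The number of genes on either side depends on the scaling of the class totals. With TMM factors (trimmed mean of M values) in place of totals, the share of lower genes among those past 2-fold was 53.3% in place of 23.3% in Epcam cells, 53.5% in place of 31.2% in C1qa cells, 38.1% in place of 24.9% in Flt3 cells and 38.6% in place of 30.7% in lymphoid cells. In Pdgfra cells it went the other way, to 47.9% in place of 55.4%. The factors shifted log2 ratios down by 0.59 in Epcam cells, 0.22 in C1qa cells, 0.19 in Flt3 cells and 0.10 in lymphoid cells, and up by 0.083 in Pdgfra cells. The summed members stayed lower in cKO in all 5 classes, with a log2 ratio of -4.54 in Epcam cells and -0.97 in C1qa cells.

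For the summed members the Epcam level was 15.4-fold lower in cKO (13.3 to 18.0), the Pdgfra level 9.49-fold (7.92 to 11.4), the Flt3 level 6.01-fold (5.21 to 6.93), the lymphoid level 4.51-fold (3.17 to 6.46) and the C1qa level 1.69-fold (1.56 to 1.82). The lymphoid log2 ratio of -2.17 was -1.05 after thinning, beside -1.04 in thinned C1qa cells. Among Epcam cells with keratin and without Ptprc, Msln or Upk3b, the summed level was 656 CPM in control against 35.8 CPM in cKO, 18.4-fold lower (14.5 to 23.6). By member the level in these cells was 24.9-fold lower for Oasl1, 23.0-fold for Oasl2 (14.1 to 40.3) and 21.9-fold for Oas2 on 8 cKO UMIs (11.1 to 50.8). It was 9.26-fold lower for Oas3, 8.01-fold for Oas1g on 3 cKO UMIs and 6.84-fold for Oas1a (3.11 to 18.8). In these cells the epithelial markers summed to 13501 CPM in control against 12838 CPM in cKO and the stromal markers to 67.4 against 81.2 CPM. Smooth muscle markers were at 47.6 against 638 CPM, dendritic markers at 4.03 against 53.6 CPM and macrophage markers at 71.3 against 28.6 CPM, and their part in the result was not tested. With 50 such cells left in cKO, 35.7% of their member UMIs came from 1 cell.

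**Figure D3:**
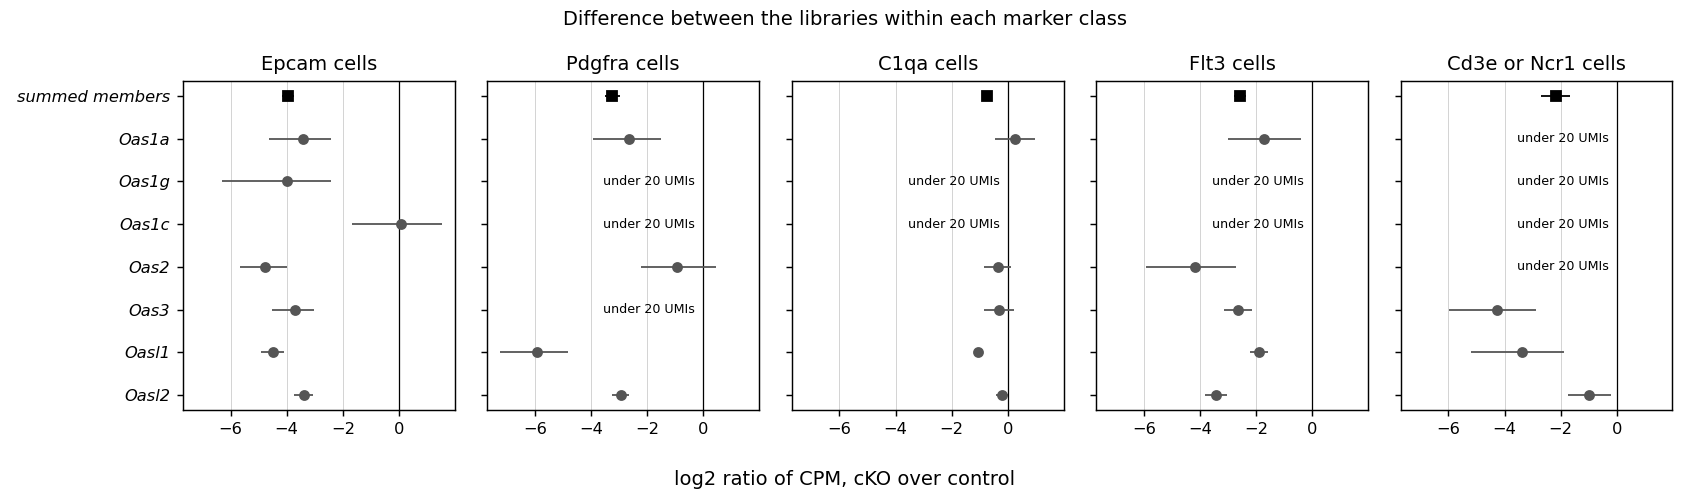
Log2 ratio of CPM, cKO over control (horizontal axis), for the summed members (squares) and each member (circles) in the 5 marker classes, with exact conditional binomial 95% intervals for counting error. Members with under 20 UMIs over both libraries carry no point. In Epcam cells the circles lie far left of 0 apart from Oas1c, whose interval spans 0, and in C1qa cells Oasl1 is the one plotted member with an interval wholly left of 0.

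The members were also counted cell by cell. A UMI of any member was found in 81.2% of control Epcam cells, 66.7% of C1qa cells, 76.7% of Flt3 cells, 26.1% of lymphoid cells and 13.6% of Pdgfra cells, and in cKO in 38.5%, 63.6%, 47.5%, 9.89% and 6.23%. Depth differs between classes and libraries, so each cell was thinned to 1000 UMIs. The control shares were then 41.0% (37.9 to 44.1) in Epcam cells, 48.2% (41.8 to 54.6) in C1qa cells, 34.9% (21 to 50.9) in Flt3 cells, 7.10% (3.60 to 12.3) in lymphoid cells and 4.40% (2.94 to 6.29) in Pdgfra cells. In cKO they were 4.90% (1.99 to 9.83), 27.7% (19.9 to 36.7), 10.6% (6.08 to 16.9), 3.01% (1.61 to 5.09) and 0.653% (0.314 to 1.20). The intervals of control and cKO were apart in Epcam, C1qa, Flt3 and Pdgfra cells and overlapped in lymphoid cells.

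Cells with a UMI of Myh11, a smooth muscle gene, and of no class marker served as a comparison. After thinning, 3.54% of them had a member UMI in control and 0.594% in cKO, at median depths of 1865 and 1588 UMIs before thinning. The Pdgfra shares lay within the intervals of these values in each library, so the share of cells with a UMI was not shown to differ between Pdgfra and Myh11 cells. The summed level in Myh11 cells was 187 CPM (159 to 219) in control, above the 55.3 CPM of Pdgfra cells, and 6.16 CPM (3.18 to 10.8) in cKO, 30.4-fold lower (16.9 to 60.1). Markers of other cell types differed there as well: the dendritic list was at 379 CPM in control against 117 CPM in cKO, the lymphoid list at 6.08 against 302 CPM, the endothelial list at 32.8 against 419 CPM and the red cell list at 58.3 against 1302 CPM. Ccr7 had 299 UMIs in 5 control Myh11 cells. The part of these cells in the Myh11 value was not tested. One Myh11 cell held 36.4% of the 154 member UMIs of that class in control.

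Member UMIs were concentrated in part of each class. The 99 control Epcam cells highest in members held 55.3% of the class's member UMIs, and the 65 highest control Pdgfra cells held 95.2%. Cells were ranked here by the same counts, at unequal depth, and only 88 of 648 control Pdgfra cells had a member UMI. The shares therefore describe the counts and do not measure how uneven expression was. UMIs of at least 3 members occurred in 454 of 984 control Epcam cells, 68 of 249 control C1qa cells and 10 of 648 control Pdgfra cells. In the thinned control Epcam cells, Oasl2 was found in 30.0% of the 190 cells with Oasl1 and in 12.5% of the 786 cells without it. In C1qa cells the same shares were 36.7% and 14.2% in control and 40.9% and 8.25% in cKO.

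RNA outside cells carried the members as well. Barcodes with 1 to 100 UMIs, taken as cell-free, held Oasl1 at 170 CPM, Oasl2 at 100, Oas2 at 60.5 and Oas3 at 26.0 in control, and at 22.8, 14.4, 2.63 and 2.19 CPM in cKO. The 8 epithelial markers gave a scale for how much of it reached other classes: their sum in control Pdgfra cells was 0.842% of its cell-free level. Scaled in this way, cell-free RNA would give 1.43 CPM of Oasl1 and 0.846 CPM of Oasl2 in control Pdgfra cells, where 15.5 and 34.2 CPM were measured. In cKO Pdgfra cells the scaled Oasl1 level was 0.475 CPM and the measured one 0.256 CPM, so the 7 Oasl1 UMIs there did not exceed it. Epcam is one of the 8 markers and is at 0 in these classes by construction, and without it the scaled Oasl1 level was 1.50 CPM in control and 0.50 CPM in cKO Pdgfra cells. A larger amount, cell-free RNA at 10% of the class total, left no Oasl1 in Pdgfra cells of either library when subtracted, so how much Oasl1 these cells held depends on that amount. In control C1qa cells the scaled Oasl1 level was 2.57 CPM against 1006 CPM measured.

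Interferon ligand transcripts were read from a list of 4 genes. Ifnb1, which encodes interferon beta, had 891 UMIs in control Epcam cells (50.1 CPM) in 81 cells, and 0 of 4197588 UMIs in cKO Epcam cells, which allows up to 3 counts. C1qa cells had 8 Ifnb1 UMIs in each library, and Pdgfra, Flt3 and lymphoid cells had none. The interferon lambda genes Ifnl2 and Ifnl3 had 24 and 53 UMIs in control Epcam cells and none in cKO Epcam cells, and Ifng, which encodes interferon gamma, had none in control and 12 UMIs (2.86 CPM) in cKO Epcam cells. Lymphoid cells had 6 Ifng UMIs in control (7.74 CPM) and 18 in cKO (7.53 CPM), and Pdgfra cells 4 and 16 UMIs. The lymphoid marker list in the Epcam class was at 11.7 CPM in control and 257 CPM in cKO. Its part in the Ifng value was not tested. Within control Epcam cells the members were at 1267 CPM in the 81 cells with an Ifnb1 UMI and at 511 CPM in the 903 cells without, a ratio of 2.48 (2.38 to 2.58). The ratio was 3.10 for Oasl2 and 2.77 for Oasl1, 2.24 for Oas1a, 1.91 for Oas1g, 1.45 for Oas2 and 1.30 for Oas3, and Oas1c, with 1 UMI in these cells, had 0.277 (0.00667 to 1.74). The cells with Ifnb1 had a median of 17602 UMIs against 5815, and after thinning 63.0% of them against 39.0% had a member UMI. The part of depth in the ratio was not tested. The 903 cells without an Ifnb1 UMI still held 68.0% of the class's member UMIs.

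**Figure D4:**
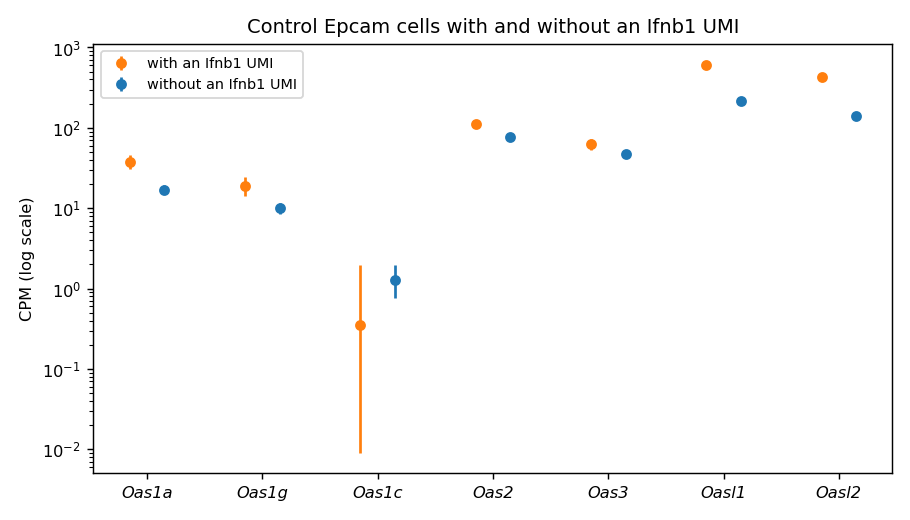
CPM of each member (vertical axis, log scale) in the 81 control Epcam cells with an Ifnb1 UMI (orange) and the 903 without one (blue), with exact Poisson 95% intervals. Oasl1 is at 603 against 218 CPM and Oasl2 at 431 against 139 CPM, and Oas1c, at 0.352 against 1.27 CPM, rests on 1 UMI in the cells with Ifnb1.

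Genes around the enzymes were read in the same classes. Of the 2-5A pathway, Pde12, which degrades 2-5A, was at 24.6 CPM in control and 29.3 CPM in cKO Epcam cells, a ratio of 1.19 (0.969 to 1.46), and at 21 and 21.7 CPM in C1qa cells. Abce1, a ribosome recycling factor, was at 52.3 and 129 CPM in Epcam cells, a ratio of 2.47 (2.22 to 2.75), and at 60.5 and 72.2 CPM in C1qa cells. Neither gene was 2-fold lower in cKO in any of the 5 classes.

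Upstream genes were divided. Of 5 interferon receptor genes, 1 (Ifnlr1, of the type III receptor, 10.5 and 2.86 CPM) was 2-fold lower in cKO Epcam cells, and the median log2 ratio was 0.31. Of 9 kinases and transcription factors 5 were lower there and none higher, among them Irf7 (98.1 and 7.15 CPM), Stat2 (106 and 15 CPM) and Irf9 (62.9 and 29.5 CPM). Of 7 RNA sensor genes 5 were lower and 1 higher, with Ifih1, which encodes the sensor MDA5, at 136 and 6.43 CPM. Of 23 other interferon-stimulated genes 20 were lower in Epcam cells and none higher, with a median log2 ratio of -3.03, and Isg15, a ubiquitin-like protein gene, was at 683 and 22.6 CPM.

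The same list had 20 of 23 genes lower in Pdgfra cells (median log2 ratio -3.09), 23 of 23 in Flt3 cells (-3.37), 20 of 21 in lymphoid cells (-2.36) and 8 of 23 in C1qa cells (-0.70). The C1qa class was thus the one in which both the members and these genes had the median log2 ratio nearest to 0. In C1qa cells Isg15 was at 928 and 459 CPM, Ifih1 at 178 and 201 CPM and Irf7 at 163 and 127 CPM. Mx1 and Mx2, also on the list, were not analysed here.

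Genes whose levels followed the family over the 10 class sums (5 classes in 2 libraries) were ranked by Pearson correlation of log2(CPM + 1) among 11513 genes, as a description, since class sums of one library share its depth and RNA pool. The summed members were most like Isg15 (r = 0.98), Ifih1 (0.97), Irf7 (0.96), Rnf213 (0.96) and Ifi44 (0.95). Isg15 was also the nearest gene for Oasl1 (0.96) and Oasl2 (0.97), Ifih1 for Oas1a (0.98) and Xaf1 for Oas3 (0.96). Oas2 was nearest to Phf11d (0.91), Oas1g to Klf6 (0.90) and Oas1c, on few UMIs, to Incenp (0.92). Among the members themselves Oas1a was at 0.97 with both Oasl1 and Oasl2, and Oas1c correlated with the others at 0.23 to 0.56.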

How the data were processed

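Whole-uterus cell suspensions of 2 groups, 1 library each, were profiled on the 10x Genomics platform. The deposited values are raw UMI counts per gene and barcode, unfiltered. Per the file headers Cell Ranger 4 wrote them, whereas the submitters' processing notes name Cell Ranger 6.1.1 and mm10. Cells, classes and class sums were computed from these counts with scanpy 1.11.5, numpy 2.4.6 and scipy 1.17.1 under Python 3.11.15. Levels are CPM of the class total with exact Poisson intervals, ratios have exact conditional binomial intervals, and shares have exact (Clopper-Pearson) binomial intervals, all at 95%. The code for ratios was tested on simulated data. With 1 library per group no test across libraries exists. Shares of cells were also taken after thinning to 1000 UMIs.

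Doublet scores (Scrublet in scanpy) over 0.25 marked 42 of 3653 and 60 of 4950 cells, which were kept and left out as an alternative. TMM factors came from edgeR 4.0.16 in R 4.3.3. Sequence identities used Biopython 1.88 and GENCODE M21. The members, marker classes and gene lists were chosen with earlier results of these data known. All members are named, pathway genes come from fixed lists, and genes named for a like pattern are the 3 nearest to a member and the 5 nearest to the sum by correlation. Some items of the lists are not reported here.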

Additional observations from a re-analysis of the deposited data

How the results depend on the processing

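The summed members were lower in cKO in all 5 classes under each of the 56 alternatives run over the classes. The log2 ratio in Epcam cells was -3.94, against -4.20 with cells weighted equally, -4.19 with keratin-bearing cells and -4.54 with TMM scaling. In Pdgfra cells it was -3.24, against -2.97 with cells of several markers kept and -2.77 with cell-free RNA subtracted. In C1qa cells it was -0.75, against -1.09 with several markers kept, -1.04 with thinned cells and -0.97 with TMM scaling, and in lymphoid cells -2.17 against -1.05 with thinned cells. Among single members the log2 ratio of Oas1a in Flt3 cells, -1.73, was 0.61 after thinning, which left 0 control cells and 2 cKO cells with an Oas1a UMI. Subtraction of cell-free RNA left no Oas2 in control Pdgfra cells, so the log2 ratio of 2.40 in place of -0.96 rests on the pseudocount. Of all single-member ratios under alternatives, 242 stayed within the counting interval of the reported value, 26 moved beyond it, and 1 whose interval excluded 0 changed sign. In all, the sign turned in 6 of these 269 values, for Oas1c in Epcam cells, Oas1a in C1qa and Flt3 cells and Oas2 in Pdgfra cells. The cause of these differences was not tested.

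Shares of the leading paralogs moved too. Over the alternatives the Oasl2 share ran from 42.8 to 93.7% in control Pdgfra cells and from 22.9 to 71.4% in cKO Epcam cells. The Oasl1 share moved as follows. In control Epcam cells it was 44.2%, and 45.4% at a 10% mitochondrial limit, 45.1% with 2 marker UMIs, 38.0% after thinning and 37.2% with cells weighted equally. In cKO Epcam cells it was 14.3% after thinning. In control Pdgfra cells, at 27.9%, it was 23.2% with 2 marker UMIs and also without the highest cell, 43.7% with several markers kept and 0% after subtraction of cell-free RNA. In cKO Pdgfra cells it was 42.5% with several markers kept, 10.0% after thinning and 0% after subtraction. In C1qa cells thinning gave 69.5% in control and 54.2% in cKO, and equal weights gave 63.1% in cKO. Control Flt3 cells gave 38.9% with several markers kept and 45.0% after thinning. Lymphoid cells gave 12.5% with equal weights and 6.85% after subtraction in control, and 29.0% with several markers kept and 0% after subtraction in cKO.

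Counts of genes past 2-fold moved by over 1.5 times under 13 of 20 alternatives. In Epcam cells TMM scaling gave 2484 lower and 2178 higher genes in place of 1217 and 3998, and in C1qa cells 537 and 466 in place of 349 and 770. A minimum of 100 UMIs gave 2191 higher genes in Epcam cells, and 374 lower and 418 higher in Pdgfra cells in place of 943 and 760. It gave 112 and 185 in C1qa cells, 146 and 274 in Flt3 cells in place of 402 and 1213, and 97 and 194 in lymphoid cells in place of 323 and 728. Fewer genes were tested in this setting, and the share of them past 2-fold was smaller too. In lymphoid cells 1.81% were lower and 3.62% higher, in place of 3.42% and 7.71%. The keratin filter and the omission of the highest cell were chosen after seeing the data. No paired analysis was possible because each group is 1 library. Depth limits Oas1c, Oas1g and the lymphoid class, where a few UMIs set a value.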
